A study of Drosophila melanogaster and Drosophila simulans and Drosophila sechellia with 48 samples.

Results

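Newly emerged adult males of Drosophila melanogaster were compared with newly emerged adult males of D. simulans and of D. sechellia. The comparison rests on the 9 adult arrays of these species, 3 per species, out of 48 arrays in the series. It uses the 2830 array elements of 13824 that gave usable spots on every array of all 3 species. An element is 1 spotted D. melanogaster cDNA clone, printed as a pair of spots, and the 2 spots were averaged. Of the 2830 elements, 1967 carry a gene name and stand for 1893 genes, and 863 carry none that could be used. The main question was which genes differ in the same direction from both of the other species.

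All groups were males of 1 laboratory strain per species: D. melanogaster 14021-0231.00, D. simulans 14021-0251.2 and a D. sechellia strain from Cousin Island. Adults were taken within 1.5 h of leaving the pupal case, and 25 males were pooled. Every species had only a single adult pool, whose RNA went onto all of its 3 arrays, which are thus technical repeats. F1 hybrid males, from D. simulans mothers and D. sechellia fathers, were described as coming from 3 separate pools per stage. Larvae, early pupae and late pupae of the same strains and hybrids make up the other arrays. On each array the twice-amplified sample RNA was set against an unamplified mixture of D. melanogaster RNA from all the stages. A value is therefore a log2 ratio of sample to that mixture, and 0 means equal to it.

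D. melanogaster, D. simulans and D. sechellia are close relatives, and the latter pair are the closest to each other. D. sechellia lives on the Seychelles islands and breeds on a single toxic fruit, whereas the other species are generalists. A fly that has just emerged is still hardening its cuticle, finishing its flight muscles and changing from stored larval reserves to feeding. The gene groups described below cover these processes together with energy metabolism and protein turnover. Both the clones and the reference RNA were D. melanogaster, and mismatches between a clone and the RNA of another species can lower a ratio. The part of such mismatches in the values below was not tested.

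Array medians lay between -0.07 and 0.09 over the series. Arrays 1 and 3 of the D. simulans adults were nearly identical, and so were arrays 1 and 3 of the D. sechellia adults. The residual differences between spots of 1 element correlated at 0.94 within both of these pairs, against -0.03 to 0.04 in the 41 array pairs that did not share them. Arrays 1 and 2 of the hybrid adults, described as separate pools, also shared these residuals, with a correlation of 0.61, and their values differed with an SD of 0.15, against 0.48 from array 3. Each such pair was counted as 1 array, so the hybrid adults entered the test as 2 pools. The hybrid adult values below are given for all 3 arrays. Array 2 of the D. simulans adults differed from arrays 1 and 3, with a correlation of 0.83. Array 2 correlated at 0.83 to 0.85 with the D. sechellia arrays and at 0.70 to 0.73 with the D. melanogaster arrays. Arrays 1 and 3 correlated at 0.75 to 0.79 with D. sechellia and at 0.78 to 0.79 with D. melanogaster. Which of these better represents the D. simulans pool was not tested. The 3 D. melanogaster arrays correlated with each other at 0.92 to 0.94. The 16 elements of testis and sperm genes had a median log2 ratio between 0.50 and 0.85 on each of the 9 arrays. The reference mixes stages and its sex is not stated, and the series has no female sample. These ratios therefore cannot check the male label. No accessory gland gene was measured. The female list matched only Cp190, whose product is not an eggshell protein, so no female marker was measured.

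Few elements stood out against the spread between hybrid arrays. In all, 5 elements differed in the same direction from both species, of which 4 were higher in D. melanogaster and 1 was lower. The higher ones were CG8066, the fatty acid synthase gene FASN3, BG642312 and an element with no gene name. The lower one was Gli, which encodes gliotactin, a protein of the junctions where 3 epithelial cells meet. An element counted as called when its difference passed an adjusted p of 0.05 and was at least 1.5-fold. The spread in this test came from the hybrid pools, because each species had 1 pool per stage. Each hybrid pool was described as going onto 1 array, so this spread also holds differences between hybridisations. Pairs of hybrid arrays that were not near-identical differed with an SD of 0.37 to 0.70. Such pairs of adult arrays from 1 species pool differed with an SD of 0.34 to 0.57. The part of the pools in the spread was not tested. Against D. simulans alone, 3 of 2830 elements were called, which is 0.106%. Against D. sechellia alone, 6 elements were called, which is 0.212%. Against the mean of both species, 5 elements were called, or 0.177%, and all 5 were also at least 1.5-fold away from each species in that direction, again 0.177%. With each array centred on its median, the calls against the mean were 4 higher and 0 lower, compared with 4 and 1, and those against D. sechellia 3 higher and 1 lower, compared with 3 and 3. At an unadjusted p under 0.05 the counts were 346, 385 and 444. Between D. sechellia and D. simulans themselves, 0 elements were called by limma, or 0%, with 175 at an unadjusted p under 0.05. The same-direction count rested on particular arrays: it was 126 without hybrid larval replicate 1 and 2 without D. melanogaster adult replicate 1. Without array 2 of the D. simulans adults it stayed at 5, and without arrays 1 and 3 of that species it was 45.

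**Figure D1:**
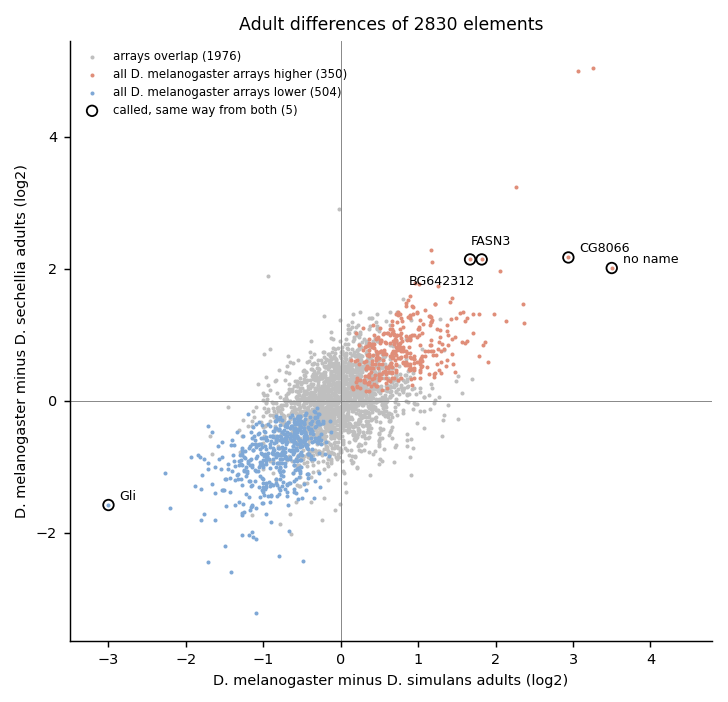
Each point is 1 of 2830 elements; the x axis is the adult log2 difference from D. simulans and the y axis that from D. sechellia, both as D. melanogaster minus the other species. Both axes share the D. melanogaster arrays. Red and blue points are the 350 and 504 elements whose 3 D. melanogaster arrays lay all above or all below the 6 others, and black circles mark the 5 called in the same direction from both.

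CG8066 (chromosome arm 3R) had the firmest difference. Its log2 ratios were 1.15, 0.80 and 0.97 on the D. melanogaster arrays, -1.5, -2.40 and -1.55 on the D. simulans arrays and -1.36, -1.02 and -1.39 on the D. sechellia arrays. The groups did not overlap, and the nearest arrays were 1.82 apart. The difference from the mean of both species was 2.55 on the log2 scale (SE 0.35, adjusted p = 0.00468, limma), or 5.87-fold. It was the only element called singly against both species, at 2.94 (adjusted p = 0.00492) against D. simulans and 2.17 (adjusted p = 0.0452) against D. sechellia. It remained called against the mean of both in all 34 alternative settings, with adjusted p from 3.09e-14 to 0.018. The call against D. sechellia alone held in 23 of the 34, with adjusted p up to 0.0914, and was lost without D. melanogaster replicate 1 and without 8 of the hybrid arrays. In the hybrid adults, whose arrays did not enter this difference, CG8066 read -1.25, -1.10 and -1.01, close to the D. sechellia arrays.

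FASN3 (CG17374, arm 3L) encodes a fatty acid synthase, the enzyme that builds long-chain fatty acids from malonyl-CoA. In D. melanogaster it is used in the oenocytes, the cells that make the waterproofing lipids of the cuticle. It read -0.08, -0.24 and -0.60 in D. melanogaster, -2.04, -2.21 and -2.05 in D. simulans, and -2.42, -2.47 and -2.44 in D. sechellia. Every D. melanogaster array lay at least 1.44 above every array of the other species. The difference from their mean was 1.98 (SE 0.37, adjusted p = 0.0447), or 3.95-fold. Against D. simulans it was 1.82 (adjusted p = 0.118) and against D. sechellia 2.14 (adjusted p = 0.0507), so neither single comparison passed. The hybrid adults were lower still, at -2.93, -3.03 and -3.27. The call held in 23 of 34 settings, with adjusted p from 6.65e-11 to 0.0907. It was lost without D. melanogaster replicate 1 or replicate 2 and without 7 of the hybrid arrays.

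BG642312 (CG33943, arm 3L) is a gene for which no role is stated here. Its D. melanogaster arrays read 2.52, 0.85 and 1.06, the D. simulans arrays -0.28, -0.13 and -0.24 and the D. sechellia arrays -0.91, -0.47 and -0.81. The first D. melanogaster array was well above the other pair, yet all 3 were higher than the 6 others. The difference from the mean of both species was 1.91 (SE 0.36, adjusted p = 0.0447), or 3.75-fold, and it was called in 24 of 34 settings, not when arrays were scaled to the same SD. Without the first D. melanogaster array it was 1.39 and not called. Against D. sechellia alone it was called at 2.14 (adjusted p = 0.0452), and against D. simulans it was 1.67 (adjusted p = 0.124).

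The element with no gene name, number 18260 on the array, read 0.91, 1.08 and 1.07 in D. melanogaster. In D. simulans it read -2.34, -2.62 and -2.33, and in D. sechellia -0.93, -1.06 and -0.92. The 3 species thus formed 3 separate levels. The difference from the mean was 2.75 (SE 0.46, adjusted p = 0.0263), or 6.75-fold. It was called against D. simulans at 3.5 (adjusted p = 0.00856) and stood at 2.01 against D. sechellia (adjusted p = 0.099). The call against the mean held in 30 of 33 settings. From larvae to adults its D. melanogaster means were -0.33, -0.27, -1.96 and 1.02, against -0.01, -0.73, -1.87 and 0.97 for CG8066. In D. sechellia they were -0.70, -2.02, -3.60 and -0.99, against -0.66, -1.86, -2.65 and -1.20. Whether both elements stand for 1 gene was not tested, so the called elements may stand for fewer genes.

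Gli (CG3903, arm 2L) went the other way. It read -0.15, -0.68 and -0.21 in D. melanogaster, 2.66, 2.64 and 2.69 in D. simulans, and 1.27, 1.19 and 1.29 in D. sechellia. All D. melanogaster arrays were lower than all others by 1.34 or more, and the other species were apart from each other as well. The difference from their mean was -2.29 (SE 0.44, adjusted p = 0.048), a 4.90-fold lower level, called in 21 of 34 settings and lost without D. melanogaster replicate 1 or 2, without 8 of the hybrid arrays and when each array was centred on its median. Against D. simulans it was -3.0 (adjusted p = 0.020), a call that held in all 34 alternative settings. Against D. sechellia it was -1.58 (adjusted p = 0.206). The hybrid adults read 2.47, 2.33 and 1.25, within the range spanned by their parent species. Cont, the other septate junction gene measured, read higher in D. melanogaster by 0.80, with overlapping arrays.

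**Figure D2:**
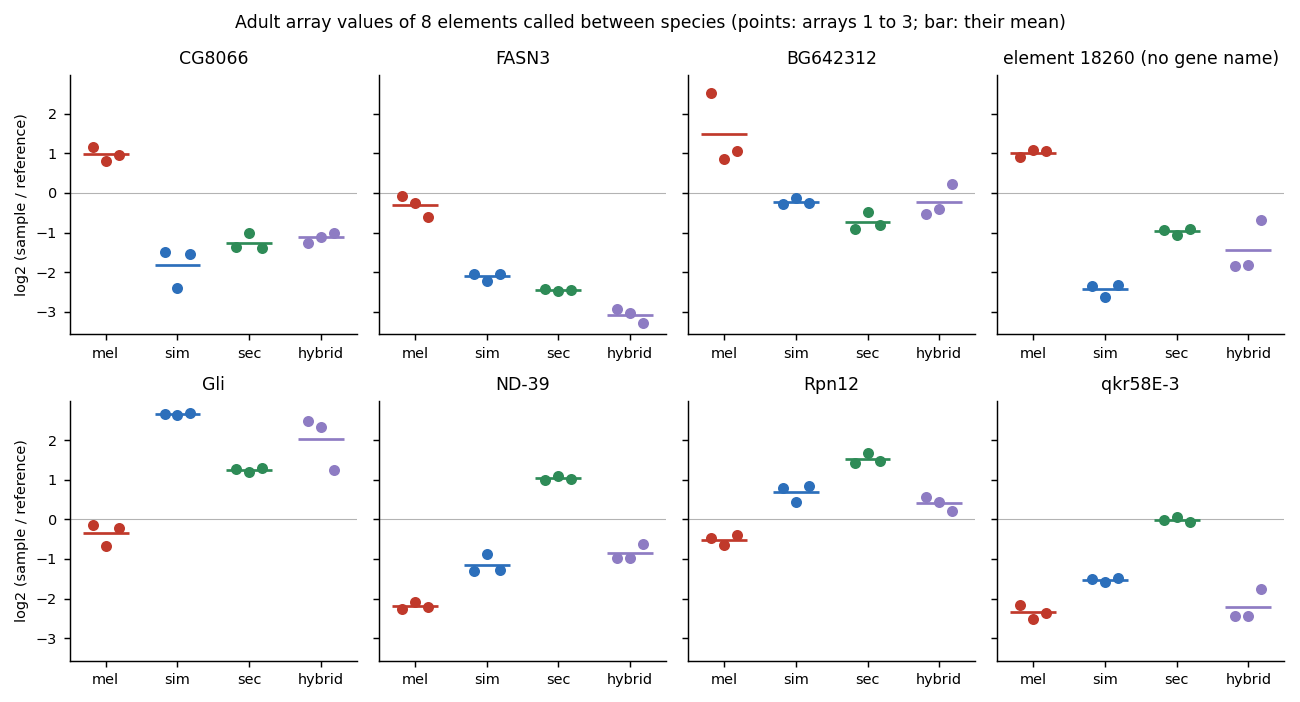
Each panel plots the log2 ratio of sample to reference for 1 element on every adult array, by species and in the F1 hybrids; points are arrays 1 to 3 in order and bars their mean. CG8066, FASN3, BG642312 and element 18260 sit higher in D. melanogaster than on all 6 arrays of the other species, and Gli, ND-39, Rpn12 and qkr58E-3 sit lower.

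In all, 5 elements were called against D. sechellia and not against D. simulans, and 3 of them, ND-39, Rpn12 and qkr58E-3, were lower in D. melanogaster. A higher one was BG642312, described above. ND-39 (CG6020, arm 3L) encodes a subunit of complex I, the entry point of the mitochondrial respiratory chain. Its arrays read -2.25, -2.08 and -2.21 in D. melanogaster, -1.30, -0.87 and -1.29 in D. simulans and 1.00, 1.08 and 1.02 in D. sechellia. D. simulans therefore lay between the other species. The difference from D. sechellia was -3.22 (SE 0.52, adjusted p = 0.0319), a 9.35-fold lower level, and that from D. simulans was -1.10 (adjusted p = 0.41).

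Rpn12 (CG4157, arm 3L) encodes a subunit of the 19S cap of the proteasome, the complex that degrades ubiquitin-tagged proteins. It read -0.48, -0.66 and -0.39 in D. melanogaster, 0.79, 0.44 and 0.83 in D. simulans and 1.42, 1.68 and 1.46 in D. sechellia. The difference from D. sechellia was -2.07 (SE 0.40, adjusted p = 0.0452) and that from D. simulans -1.13 (adjusted p = 0.263). For qkr58E-3 (CG3584, arm 2R), which encodes an RNA-binding protein of the quaking-related family, the D. melanogaster arrays read -2.16, -2.51 and -2.36. The D. simulans arrays read -1.51, -1.59 and -1.49, and those of D. sechellia -0.02, 0.06 and -0.06. Its difference from D. sechellia was -2.35 (adjusted p = 0.0452) and that from D. simulans -0.80 (adjusted p = 0.469). For all of these genes the D. melanogaster arrays also lay below every D. simulans array.

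The remaining called element, number 24004 with no gene name, differed from D. sechellia alone. It read -0.13, 0.31 and 0.46 in D. melanogaster, 0.57, -0.09 and 0.56 in D. simulans and -2.76, -2.63 and -2.75 in D. sechellia. D. melanogaster and D. simulans overlapped, with a difference of -0.02, whereas D. sechellia was lower by 2.91 (adjusted p = 0.0452). The difference between D. sechellia and D. simulans, -2.93, was not called (adjusted p = 0.162). None of the calls against D. sechellia held in every setting: that of ND-39 held in 27 of 34, those of Rpn12 and qkr58E-3 in 21, and that of BG642312 in 22.

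Beyond the called elements, many more had D. melanogaster arrays that did not overlap with the others. All 3 D. melanogaster arrays lay above all 6 others for 350 elements (12.4%) and below them for 504 (17.8%). These shares describe single pools, and arrays of 1 pool do not show how pools vary. With D. simulans arrays 1 and 3 only, the counts were 423 and 559. With array 2 as the only D. simulans array they were 559 and 706. A total of 201 elements were at least 1.5-fold higher than each of the other species and 297 at least 1.5-fold lower. In 35 genes with several elements, at least 1 element did not overlap, and in 29 of them all elements lay on the same side.

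After CG8066, the named element with the highest non-overlapping difference was Nak, which encodes the Numb-associated kinase. Nak read 2.26, 2.32 and 2.57 in D. melanogaster, 0.22, 0.44 and 0.19 in D. simulans and 0.16, 0.72 and 0.11 in D. sechellia. Its difference of 2.01 did not pass the test (SE 0.50, adjusted p = 0.0864). Next after FASN3 and BG642312 came RpL35, a protein of the large ribosomal subunit, at 1.77, CG14327 at 1.67 and cwo at 1.65. The product of cwo, Clockwork orange, is a transcriptional repressor of the circadian clock. On the D. melanogaster arrays cwo read 1.41, 1.45 and 1.56, with the others between -0.81 and 0.21. The top 15 also held the translation initiation factor eIF4B at 1.43 and Dbp80, a DEAD-box RNA helicase, at 1.50. Among them too were Trp1, which encodes the Sec62 component of the protein channel of the endoplasmic reticulum, at 1.41, and Slmap at 1.39. None of the 15 apart from CG8066, FASN3 and BG642312 was called.

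At the lower end, 3 of the 4 largest non-overlapping differences of named elements after Gli belonged to oxidative phosphorylation: ND-39, ATPsyngamma and COX8. ATPsyngamma, the central stalk of ATP synthase, read -1.83, -1.41 and -1.78 in D. melanogaster. In D. simulans it read -0.16, 0.23 and -0.14, and in D. sechellia 0.73, 0.79 and 0.74. The difference was -2.08 (SE 0.50, adjusted p = 0.0817). COX8, a subunit of cytochrome c oxidase, read -2.04, -2.74 and -2.47, against -0.65, -1.34 and -0.66 and against -0.13, 0.46 and -0.08. Its difference was -2.01 (adjusted p = 0.0817). The others in the lowest 15 included slf at -1.92, whose product Schlaff helps the layers of the cuticle stick together, and CG9399 at -1.85. Further down came the glycolytic aldolase Ald1 at -1.57, CG3829 at -1.51, the muscle actin Act87E at -1.5 and the cuticle protein Cpr97Ea at -1.47. Jon65Aiv, a gut serine protease of the Jonah family, stood at -1.49, and the polyubiquitin gene Ubi-p5E at -1.46. Apart from Gli, ND-39, Rpn12 and qkr58E-3, none of the 15 was called in any of the comparisons.

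**Figure D3:**
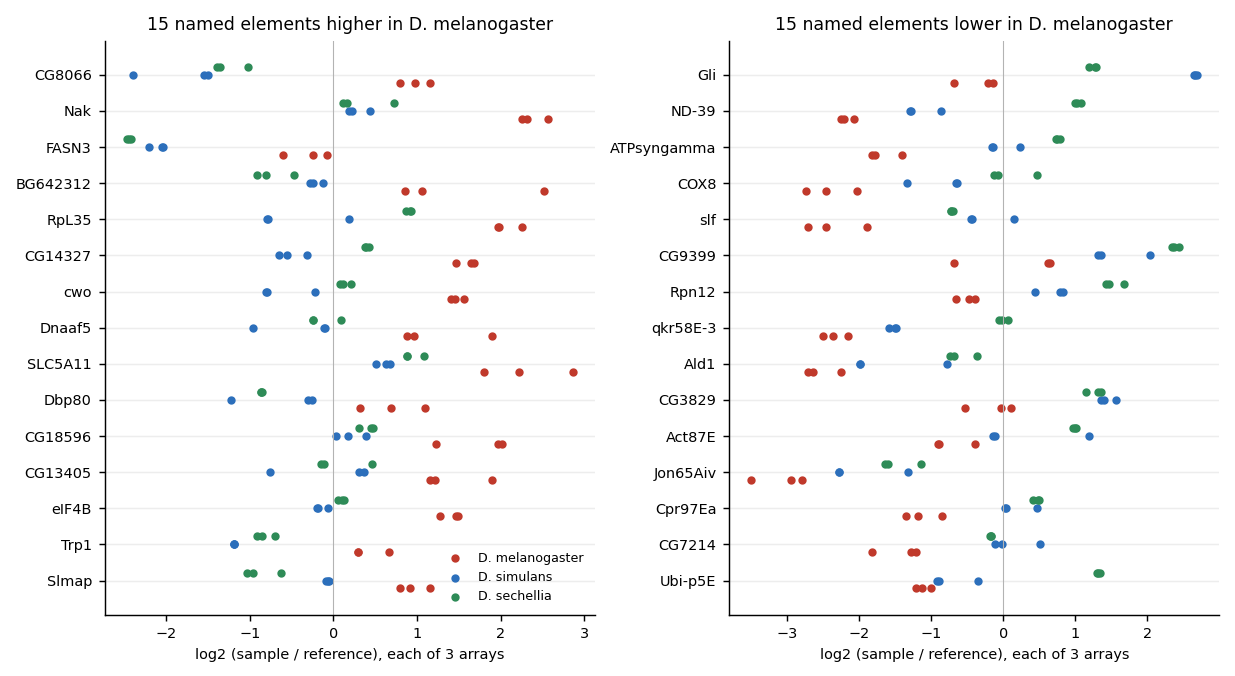
For the 15 named elements with the highest and the 15 with the lowest difference among those whose arrays did not overlap, points show the log2 ratio on each of the 3 adult arrays per species. In every row the red D. melanogaster points lie on 1 side of all blue D. simulans and green D. sechellia points, as the choice of these elements requires.

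Gene groups were described by their counts and medians, beside the median of -0.04 over all 2830 elements. Sarcomere genes, which build the contractile units of muscle, were lower in D. melanogaster for 12 of 13 elements. Their median difference was -0.79, and 8 of 13 (61.5%) lay below all other arrays, against 17.8% of all elements. Act87E was lower on both of its elements, at -1.5 and -1.36, Tm2, a tropomyosin, stood at -1.18, and Act79B at -1.05. Every muscle actin element of the list lay below: both of Act87E and those of Act79B, Act88F and Act57B. The others below were Tm2, Mlc1 and TpnC73F. The muscle actin genes are close to each other in sequence, so their clones may share signal and count more than once in the 61.5%. The median of the group was -0.63 against D. simulans and -1.06 against D. sechellia. By array, the group's median log2 ratio was between -0.80 and -0.47 in D. melanogaster and between 0.78 and 0.89 in D. sechellia. In D. simulans it was -0.24 on arrays 1 and 3 and 0.27 on array 2. None of the sarcomere elements was called.

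Ribosomal proteins of the cytosol were lower for 14 of 18 elements, with a median of -0.70. Of the 18, 9 (50%) lay below all other arrays, against 17.8% of all elements. Among the 9 were RpS19a at -1.23, RpL4 at -1.19 and RpL3 at -1.15. RpL35 and RpLP2 lay above all others, at 1.77 and 0.75. For 11 elements of mitochondrial ribosomal proteins the median was 0.25, with 1 above and 1 below, and 0.13 when arrays were scaled to the same SD. Their medians were 0.03 against D. simulans and 0.18 against D. sechellia. Of 13 elements of glycolysis and the citric acid cycle, 10 were lower, with a median of -0.69, and 6 (46.2%) lay below all other arrays, against 17.8% of all elements. Those 6 were both elements of Ald1 (-1.57 and -0.71), both of Gapdh1 (-1.42 and -0.87), Eno at -1.41 and Pgi at -1.30. All of these act between glucose 6-phosphate and phosphoenolpyruvate in glycolysis, and none of the citric acid cycle elements was among them.

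The proteasome list had 18 elements, and their median was -0.64. All 18 read lower in D. melanogaster, although Prosalpha7 and 1 of the Rpn13 elements rounded to 0, and 16 were lower when each array was centred on its median. Against 17.8% of all elements, 7 of the 18 (38.9%) lay below all other arrays. Besides Rpn12 they included Prosbeta2 at -1.32 and Prosbeta6 at -1.26, both from the catalytic core, and Rpn8 at -1.13 from the cap. Oxidative phosphorylation subunits were lower for 16 of 22 elements, with a median of -0.56, and 7 (31.8%) lay below, against the same 17.8%. The ATP synthase subunits were lower on all 6 of their elements, from -2.08 to -0.04, whereas levy and SdhA read higher, at 0.34 and 0.51. COX7AL lay above all other arrays at 1.00. This group depended on the D. simulans array: its median difference from D. simulans was -0.09 with arrays 1 and 3 alone and -0.38 with array 2 alone, against -0.84 from D. sechellia. Without array 2 the medians against the mean of both species were -0.34 for oxidative phosphorylation, -0.46 for the proteasome and -0.48 for glycolysis and the citric acid cycle. Among the sarcomere, cytosolic ribosomal, glycolytic, proteasome and oxidative phosphorylation lists, the median difference from each species was below 0 with either set of D. simulans arrays, under both array scalings and on each spot alone.

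Cuticle and chitin genes had a median difference of -0.71 from D. simulans over 17 elements, compared with -0.13 from D. sechellia. Against the mean of both the median was -0.39, and -0.17 when arrays were scaled to the same SD. Without array 2 of the D. simulans adults the median from D. simulans was -0.47 and that from the mean -0.26, and on the first spot alone the former was -0.49. Of the 17, 4 (23.5%) lay below all others, a share near the 17.8% of all elements. They were the structural proteins Cpr97Ea at -1.47, Cpr100A at -1.33 and Cpr62Bc at -1.32 and the chitin deacetylase gene verm at -0.66. Cpr100A read 1.15, 1.74 and 1.63 in D. melanogaster, 2.85, 3.84 and 2.86 in D. simulans and 2.43, 2.28 and 2.30 in D. sechellia. The lipid list showed no common direction. Its median was -0.09 over 14 elements and 0.06 without array 2 of the D. simulans adults, and it spanned FASN3 at 1.98 and the lipase gene Lip4 at -1.37. Of this list, 4 elements (28.6%, against 12.4% of all elements) lay above all others, namely FASN3, LpR2 at 0.78, mino at 0.56 and LpR1 at 0.41. LpR1 and LpR2 encode the lipophorin receptors, which take up circulating lipid. Testis and sperm genes had a median of -0.01, with values from -0.51 for Hsp60C to 0.94 for dj, and the sign of that median differed between array scalings. Among the 8 detoxification elements, from the Cyp, Gst and Ugt families, none lay above or below all other arrays, and their differences ran from -0.26 to 0.35.

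In the smaller lists, members were named where their arrays did not overlap. Over all elements 12.4% lay above and 17.8% below all other arrays, so single members say little about their lists. Hsc70-5, a mitochondrial chaperone gene, was above all other arrays on 1 of its elements, at 0.51, and overlapped on the other, at 0.56. Rh2, the opsin of the ocelli, was lower at -1.36. Hsp68, an inducible heat shock protein, was lower at -1.41, with D. melanogaster arrays at -2.73, -2.89 and -3.09 and the others between -2.10 and -0.84. The transcriptional repressor gene Blimp-1, which responds to ecdysone, was lower at -1.06. BomBc2, an immune-induced peptide gene, stood at -0.43 and the pigmentation gene speck at -0.61. None of these was called in adults.

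**Figure D4:**
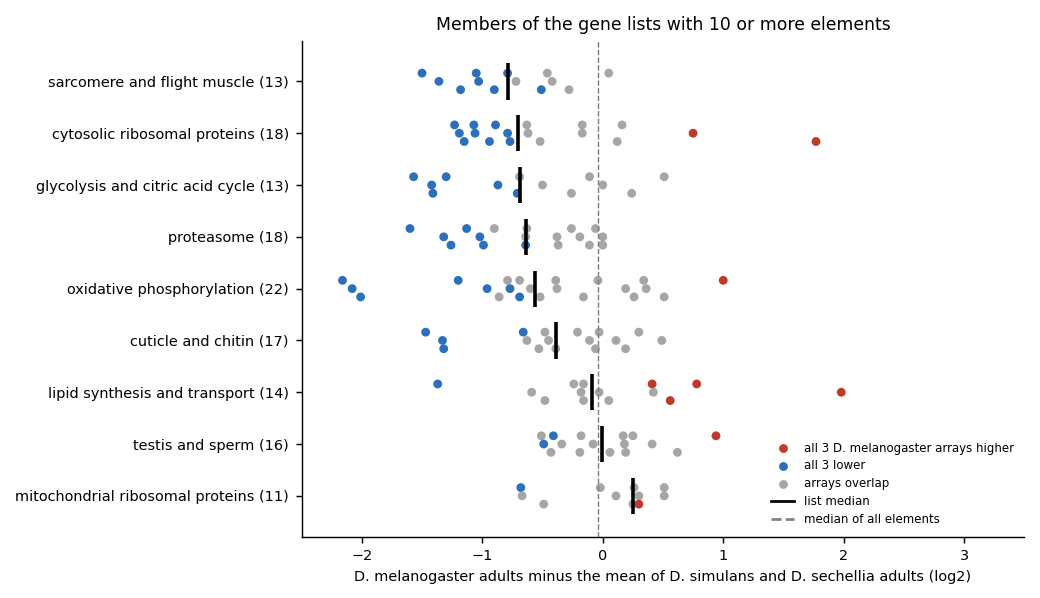
Each point is 1 element of a gene list, placed at the difference between D. melanogaster adults and the mean of the other species on the log2 scale. Red and blue points have D. melanogaster arrays all above or all below the 6 others, black bars are list medians and the dashed line is the median of all elements, -0.04. Medians run from -0.79 for sarcomere genes to 0.25 for mitochondrial ribosomal proteins.

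The earlier stages, measured on other pools, allowed the adult differences to be followed back. In late pupae, 162 of the 350 elements that were higher in adults were also higher on all D. melanogaster arrays. That is 46.3% of the adult set and 41.6% of the late pupal set, where 13.7% of all elements were higher. For the lower elements the overlap was 223, which is 44.2% of the adult set and 43.6% of the late pupal set, with a background of 18.1%. In early pupae, 114 higher elements were shared (32.6% and 36.3%, background 11.1%) and 142 lower ones (28.2% and 31.4%, background 16%). In larvae, 124 higher elements were shared (35.4% and 31.5%, background 13.9%). Lower elements shared with larvae numbered 80 (15.9% and 24.7%, background 11.4%). The backgrounds given here belong to the first share of each pair, that of the adult set. For the second share, that of the earlier set, the background is the adult one, 12.4% for higher and 17.8% for lower elements. Each share of an adult set was above its background, most narrowly for the lower elements in larvae, and these differences were not tested. All of these arrays share the D. melanogaster reference RNA and the same clones. A total of 63 elements were higher and 28 lower at all 4 stages, whereas 140 were higher and 206 lower in adults only.

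Among the genes higher at all 4 stages were Dbp80 (1.50 in adults, and 1.27, 1.25 and 1.24 in larvae, early pupae and late pupae), Trp1, Slmap, eIF4G1 and Pih1D1. The initiation factor gene eIF4G1, at 1.38 in adults, lies on chromosome 4. Genes lower at all 4 stages included Gli, Lip4, the glycolytic gene Eno and Blimp-1. Gli differed by -0.95 in larvae, -1.04 in early pupae and -0.56 in late pupae, compared with -2.29 in adults. Lip4 was steadier, at -0.68, -0.72 and -0.69 before its -1.37 in adults. Blimp-1 differed more at the earlier stages than in adults, by -1.41, -1.75 and -2.49.

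CG8066 differed by 1.00 in larvae, 1.35 in early pupae and 0.54 in late pupae. FASN3, by contrast, differed by 0.11, 0.36 and 0.68 before its 1.98 in adults. Its late pupal level was -2.0 in D. melanogaster, -2.49 in D. simulans and -2.89 in D. sechellia. In adults the same species stood at -0.31, -2.13 and -2.45. BG642312 differed in both directions, with -0.78 in larvae, 0.48 in early pupae and -0.15 in late pupae. ND-39 differed by -0.25 in larvae, -0.20 in early pupae and -0.88 in late pupae, where its D. melanogaster arrays already lay below all others. A contrast of the adult difference with the mean of the 3 earlier differences called 0 elements in limma, or 0%, with 193 at an unadjusted p under 0.05. For FASN3 this contrast was 1.60 (adjusted p = 0.373) and for BG642312 2.06 (adjusted p = 0.122).

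**Figure D5:**
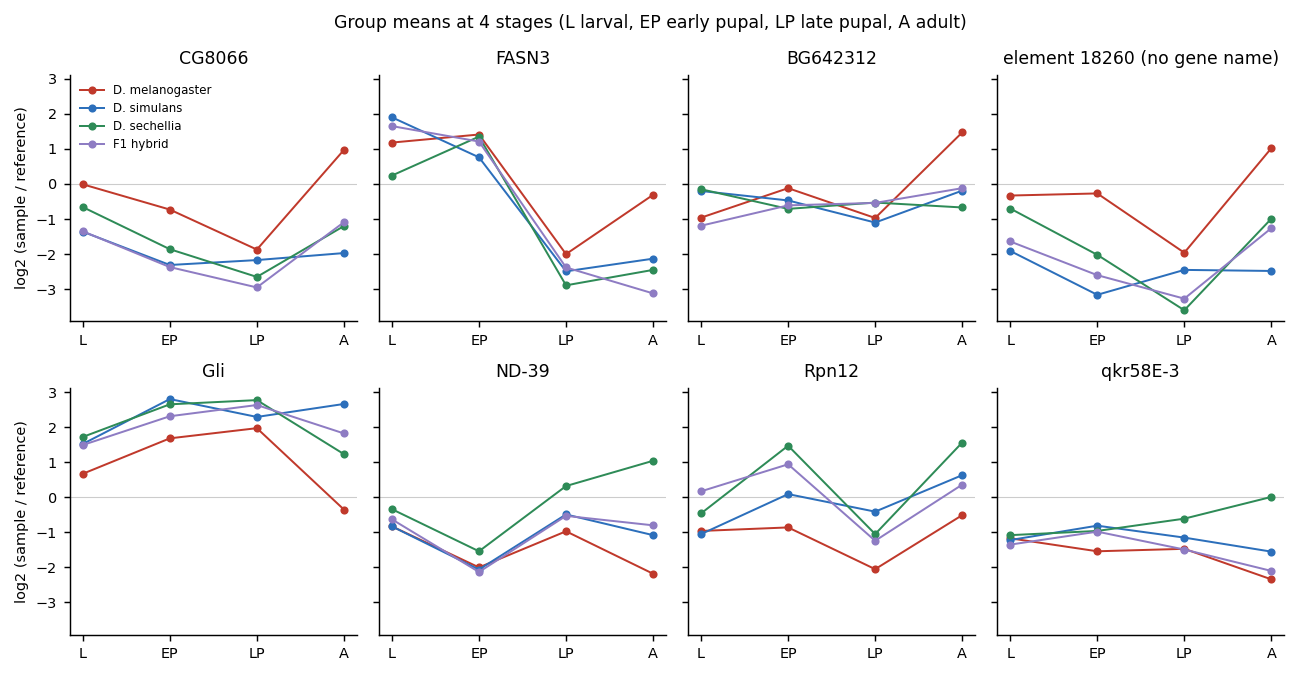
For the same 8 elements as in the panels of adult arrays, lines join the mean log2 ratio of each species and of the F1 hybrids through development, from larvae (L) over early (EP) and late pupae (LP) to adults (A). In adults the D. melanogaster line is above the others for CG8066, FASN3, BG642312 and element 18260 and below them for the remaining panels. For FASN3, ND-39 and BG642312 the D. melanogaster line lies among or next to the others in larvae and early pupae.

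The group medians were also followed back. Sarcomere genes had a median difference of -0.58 in larvae, 0.05 in early pupae and -0.75 in late pupae, against -0.79 in adults. Glycolysis and citric acid cycle elements were at -0.68, -0.27 and -0.27, and all 13 were lower in larvae. Proteasome genes read 0.25 in larvae and -0.36 and -0.35 in the pupal stages. Cytosolic ribosomal proteins were near 0 in larvae and early pupae, at -0.06 and 0.07, and at -0.44 in late pupae. Testis and sperm genes, whose adult median was -0.01, had medians of 0.58, 0.49 and 0.52 at the earlier stages, where at most 3 of the 16 elements were lower.

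By chromosome, the share of elements below all other arrays ran from 13.2% on arm 2L to 17.9% on X, and the share above from 11.1% on 3L and X to 13.8% on 2L. Chromosome 4, with 28 elements, had 6 above (21.4%) and 0 below, and a median difference of 0.34.

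Of the 5 largest adult differences from the mean of both species, 3 belonged to elements without a gene name that were not called in adults. They were numbers 14784, 10742 and 26762. Element 14784 read 1.39, 2.05 and 2.31 in D. melanogaster, -1.44, -1.24 and -1.45 in D. simulans and -3.08, -3.15 and -3.09 in D. sechellia. Its difference from the mean was 4.15 with an SE of 1.13 (adjusted p = 0.11). At the earlier stages it was larger, at 6.37 in larvae, 7.31 in early pupae and 5.65 in late pupae. Element 10742 differed by 4.03 in adults (SE 1.05, adjusted p = 0.0968) and element 26762 by 2.74 (SE 1.21, adjusted p = 0.28). The D. melanogaster arrays of all 3 lay above every other array at all 4 stages. In early pupae elements 14784, 10742 and 26762 differed by 7.31, 7.16 and 6.63 (limma, adjusted p = 0.00553, 0.00553 and 0.0149). Their D. simulans means there were -4.86, -5.04 and -4.96, far below the reference. The profiles of these elements were alike, and whether they stand for 1 sequence was not tested.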

How the data were processed

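RNA of 25 males per pool was amplified in 2 rounds and hybridised to 2-colour cDNA arrays of D. melanogaster clones, with the same dye orientation on every array. The authors removed spots by inspection and by intensity, normalised each array with a joint spatial and intensity loess, and deposited log2 ratios of sample over reference. These deposited log2 values were used without further scaling, spots of an element were averaged, and elements lacking a value on any array of the 3 species were left out. Precision is limited by the number of arrays and by the single pool per species and stage. No values of the supplementary tables were used beyond clone names: 1805 elements were named from the platform annotation and 162 from the clone list of the study.

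limma (version 3.58.1, R 4.3.3) was fitted over 23 units in 16 groups. Near-identical arrays (correlation of spot differences above 0.5) were merged, the arrays of a species and stage were averaged to 1 unit, and hybrid pools gave the 7 residual degrees of freedom, with 9.54 prior degrees of freedom. For 295 elements not measured in the hybrids, such as Blimp-1, the standard error came from the prior alone. p-values were adjusted by Benjamini-Hochberg over 2830 elements. They rest on the assumption that species pools vary like hybrid pools. Each species unit, a mean of arrays, was given the same variance as a hybrid unit. A call needed a difference of 1.5-fold or more with an adjusted p below 0.05. The procedure was also run on simulated data, without merging arrays and with species pools drawn to vary like hybrid pools. That run could not check the assumption about species pools. Named genes were those called, the 15 highest and 15 lowest among named elements with non-overlapping arrays, and, for each gene list, members that were called or among the 4 with the largest difference. In lists under 10 elements these were named only where their arrays did not overlap, a limit set after the data were seen. Further list members are named as examples chosen after their values were seen. So are the genes that differed at all stages and 3 elements without a gene name that were not called in adults. Members and lists were chosen with earlier results of these data known. Gene lists were matched by symbol. Alternatives covered merging, replication, scaling, each spot, multiple elements and leaving out each array. Figures were drawn with matplotlib 3.10.9 in Python 3.11.15.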

Additional observations from a re-analysis of the deposited data

How the results depend on the processing

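The number of calls depended most on what was taken as a replicate. With every array as a replicate, 819 elements were called against D. simulans, 879 against D. sechellia, 769 against the mean of both and 466 in the same direction from both. With the replicate number added as a block these counts were 823, 884, 773 and 467, and after merging near-identical arrays (chosen after seeing the data) 687, 736, 739 and 487. These fits take the spread between the arrays of a group as the error. For the species that is the spread between hybridisations of 1 pool, and the hybrid arrays, described as separate pools, enter it too. Deviations of same-numbered adult arrays from their group mean correlated at -0.17 to 0.21. The deviations in a group sum to 0, and arrays 1 and 3 were near-identical in D. simulans and in D. sechellia. These correlations therefore cannot show whether the numbers pair arrays. With near-identical arrays unmerged, 12, 11 and 11 elements were called against D. sechellia, against the mean and in the same direction. On the adult groups alone the 4 counts were 11, 20, 22 and 22. The first spot alone gave 1, 2 and 2 and the second spot alone 0, 1 and 1 for the last 3 of these counts. Without both near-identical D. simulans adult arrays (also chosen after seeing the data), 86 elements were called against D. simulans, 45 against the mean and 45 in the same direction. Centring or scaling each array, 1 element per gene, no fold limit, and the elements measured in hybrids alone kept all 4 counts within 1.5 times.

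Leaving out 1 of 21 arrays in turn gave 3 to 45 calls against D. simulans, 0 to 71 against D. sechellia, 1 to 127 against the mean and 1 to 126 in the same direction. The highest counts came without hybrid larval replicate 1. Counts of 0 against D. sechellia came without any of hybrid early pupal replicates 1, 2 and 3, late pupal replicates 2 and 3 or adult replicate 3. Same-direction counts were 2, 1 and 1 without early pupal replicates 1, 2 and 3, 3, 3 and 2 without late pupal replicates 1, 2 and 3, 2 without larval replicate 3, and 2, 3 and 9 without D. melanogaster adult replicates 1, 2 and 3. Against D. sechellia, the counts without these D. melanogaster arrays were 2, 10 and 11, without hybrid larval replicate 3 2, and without late pupal replicate 1 3. The cause was not tested. For the difference from the mean of both species, 65 named elements gave 2200 values under the alternatives. Of these, 0 changed sign, 37 lost the call and 228 gained one. Only the 5 elements called against the mean had a call to lose, so the 37 are not a share of the 2200. These calls held in 34 of 34 settings for CG8066, 24 for BG642312, 23 for FASN3 and 21 for Gli. For element 18260 the call held in 30 of 33. Leaving out a hybrid array or the fold limit cannot change the difference from the mean, only its call. The elements were also mostly chosen for large differences, so the count of 0 says little. Against D. simulans alone, element 24004 ran from -0.35 to 0.31. Of the 5 same-direction calls, those of FASN3, Gli and BG642312 were lost on either spot alone and that of element 18260 on the second spot. On the second spot their differences were 1.96, -2.17, 1.89 and 2.78, against 1.98, -2.29, 1.91 and 2.75 with both spots.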
